A study of Saccharomyces cerevisiae with 42 samples.

Results

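The proteasome genes of Saccharomyces cerevisiae were taken by standard name, as the open reading frames PRE1 to PRE10, PUP1 to PUP3, SCL1, and those whose name begins with RPN or RPT and a number. This gave 34 genes of the 6278 open reading frames on the array. The core particle accounted for 14 of them, 7 in the alpha ring and 7 in the beta ring. The base of the regulatory particle accounted for 9 and its lid for 8. The remaining genes were RPN10, whose product sits between base and lid, RPN14, an assembly chaperone that is not a subunit, and RPN4, a transcription factor that is not a subunit either. A value in each of the 18 averaged columns was present for 31 genes. RPT6, RPN6 and RPN13 had values in biological replicates 2 and 3 only.

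The proteasome degrades proteins that carry ubiquitin chains. The alpha rings of its core gate the entry and the beta rings hold the protease sites, while the base unfolds substrates with its ATPases and the lid removes ubiquitin. In yeast, Rpn4 binds a short element shared by most proteasome promoters and activates them, and it is itself a short-lived substrate of the proteasome. Hog1 is the mitogen-activated protein kinase that yeast activates under hyperosmotic shock.

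The 6 groups of cultures were compared in 42 array profiles with 2 colours: HOG1-CCAAX, hog1del and HOG1-GFP, each at 60 min of 1 M sorbitol at 25 °C and at 0 min, before it. HOG1-CCAAX carries Hog1 with an added CCAAX ending, a lipidation signal that ties proteins to membranes, hog1del lacks HOG1, and HOG1-GFP carries Hog1 fused to green fluorescent protein and served as the comparison strain, so no strain had an untagged Hog1. Each group had 3 biological replicates. Replicate 1 of a group was measured in 3 technical profiles and each other replicate in 2, which came from features spotted in duplicate on one slide. No culture was kept for 60 min without sorbitol, so the shock and the elapsed time cannot be told apart.

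A level here is the log2 ratio of a sample to a common reference pool, so levels of one gene can be set against each other, but not levels of different genes. A response is the level at 60 min minus the level at 0 min in the same strain and replicate. The targeted gene HOG1 (YLR113W) followed the labels. Its level in hog1del was between -3.97 and -3.49 at 60 min and between -3.47 and -3.03 at 0 min, against 0.21 to 0.46 and -0.10 to -0.06 in HOG1-GFP. Replicate 1 stood apart from the other replicates. Across genes, HOG1-GFP responses of replicate 1 correlated at 0.75 with those of replicates 2 and 3, which correlated with each other at 0.98. The first technical profile of replicate 1 correlated at 0.39 to 0.77 with the others of its sample, which correlated with each other at 0.91 to 0.98. The duplicate spots of replicates 2 and 3 correlated at 0.97 to 0.98. Results that rest on replicate 1 are therefore given with and without it below.

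RPN4 (YDL020C), the activator of the proteasome genes, rose in every strain and every replicate, and its mean response was highest in hog1del. In HOG1-CCAAX its levels were 0.63, 0.62 and 0.40 in replicates 1, 2 and 3 at 60 min, against -1.26, -0.92 and -0.76 at 0 min. In hog1del they were 0.80, 1.35 and 1.04 at 60 min, against -1.35, -0.65 and -0.63 at 0 min. In HOG1-GFP they were -0.44, 0.42 and 0.45 at 60 min, against -1.39, -0.65 and -0.68 at 0 min. Each sample at 60 min lay above each sample of its strain at 0 min, and the 3 hog1del samples at 60 min lay above the 3 HOG1-GFP samples at 60 min. The responses were 1.53 ± 0.37 in HOG1-CCAAX (2.89-fold, adjusted p = 5.1e-05), 1.94 ± 0.24 in hog1del (3.84-fold, adjusted p = 2.1e-05) and 1.05 ± 0.09 in HOG1-GFP (2.07-fold, adjusted p = 5.7e-04; SD, n = 3 each, limma over 5443 genes). RPN4 passed in the 3 strains under each of the 10 alternative settings.

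The strains differed in the RPN4 response by amounts that did not pass the threshold in the fit without the replicate as a block. The response in hog1del minus that in HOG1-GFP was 0.89, with a 95% confidence interval of 0.40 to 1.38, and was above 0 in 3 of 3 replicates (limma, adjusted p = 0.073). With the biological replicate as a block the adjusted p was 0.0090, and over the 10 alternatives it ranged between 0.0090 and 0.779, with 2 alternatives past the threshold. HOG1-CCAAX minus HOG1-GFP gave 0.48 (interval -0.02 to 0.97, adjusted p = 0.675), and HOG1-CCAAX minus hog1del gave -0.41 (interval -0.90 to 0.08, adjusted p = 0.707). The level at 60 min, fitted with the replicate as a block, did pass between hog1del and HOG1-GFP, with a difference of 0.92 (1.89-fold, interval 0.51 to 1.33, adjusted p = 0.0056). At 0 min the same difference was 0.03 (interval -0.19 to 0.25, adjusted p = 0.942).

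**Figure D1:**
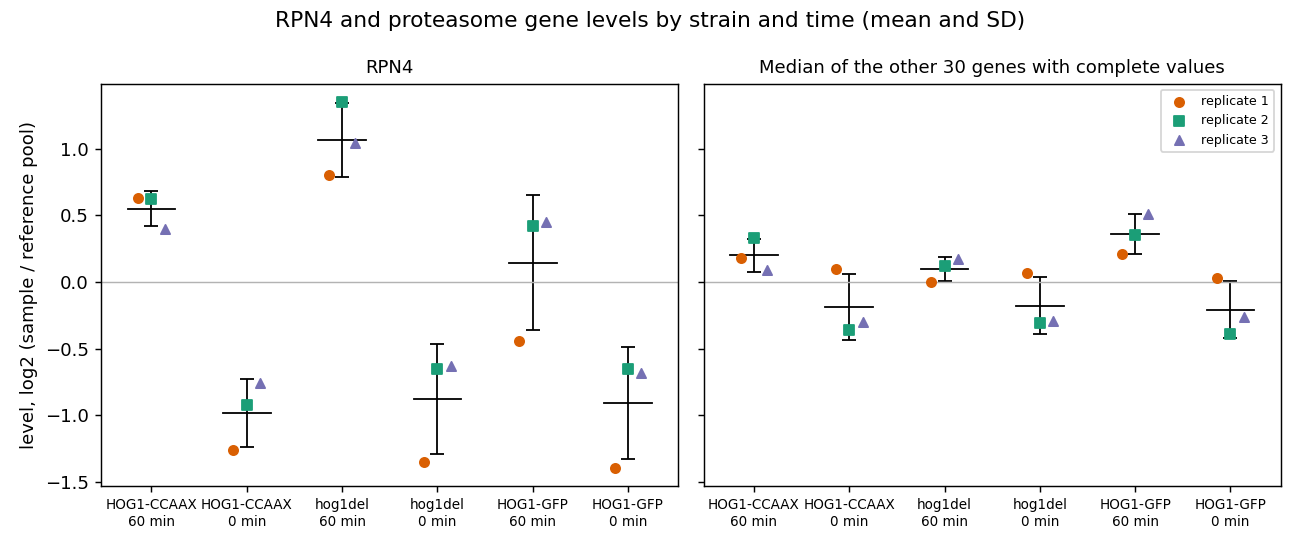
Levels (log2 of sample over reference pool) of RPN4 on the left and of the median of the other 30 proteasome genes with complete values on the right, at 60 and 0 min in HOG1-CCAAX, hog1del and HOG1-GFP. Points are the 3 biological replicates, horizontal lines their mean and bars the SD. RPN4 lay between 0.80 and 1.35 in hog1del at 60 min, against -0.44 to 0.45 in HOG1-GFP, while the medians of the other genes at 60 min lay between -0.00 and 0.17 in hog1del, against 0.21 to 0.51 in HOG1-GFP.

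The subunit genes responded upward or not detectably, and the count was largest in HOG1-GFP. Among the 31 genes tested, RPN4 included, 11 rose in HOG1-CCAAX, which is 35.5% beside 28.1% of all 5443 genes. In hog1del 9 rose, which is 29.0% beside 25.6% of all genes, so this share stood near the background. In HOG1-GFP 18 rose, which is 58.1% beside 24.0% of all genes. By limma 0 proteasome genes fell in any strain, also at an unadjusted p of 0.05, where 26.1%, 27.4% and 22.7% of all genes fell in HOG1-CCAAX, hog1del and HOG1-GFP at the adjusted threshold. The median response over the 31 genes was 0.43 in HOG1-CCAAX, 0.35 in hog1del and 0.64 in HOG1-GFP, where the medians over all tested genes lay between -0.01 and 0.03. PRE4, PRE7, RPT3, RPT4, RPT5, RPN11 and RPN4 rose in all 3 strains.

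With RPT6, RPN6 and RPN13 included, in a fit that asked for at least 2 replicates per strain, the counts of 34 were 12, 11 and 20 in HOG1-CCAAX, hog1del and HOG1-GFP. The background of that fit was 27.5%, 25.6% and 23.7% of genes. The replicate numbers were taken as pairing the samples, and with the replicate as a block 19, 20 and 28 of 31 genes rose in HOG1-CCAAX, hog1del and HOG1-GFP. These shares were 61.3%, 64.5% and 90.3%, beside 35.9%, 34.3% and 33.5% of all genes. In that fit PRE1, RPN10 and RPN14 fell in hog1del, which is 9.68% of the 31 genes beside 35.5% of all genes. Calls given for core, base, lid and related genes below are those of the fit without the block, and the counts with it stand beside them.

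**Figure D2:**
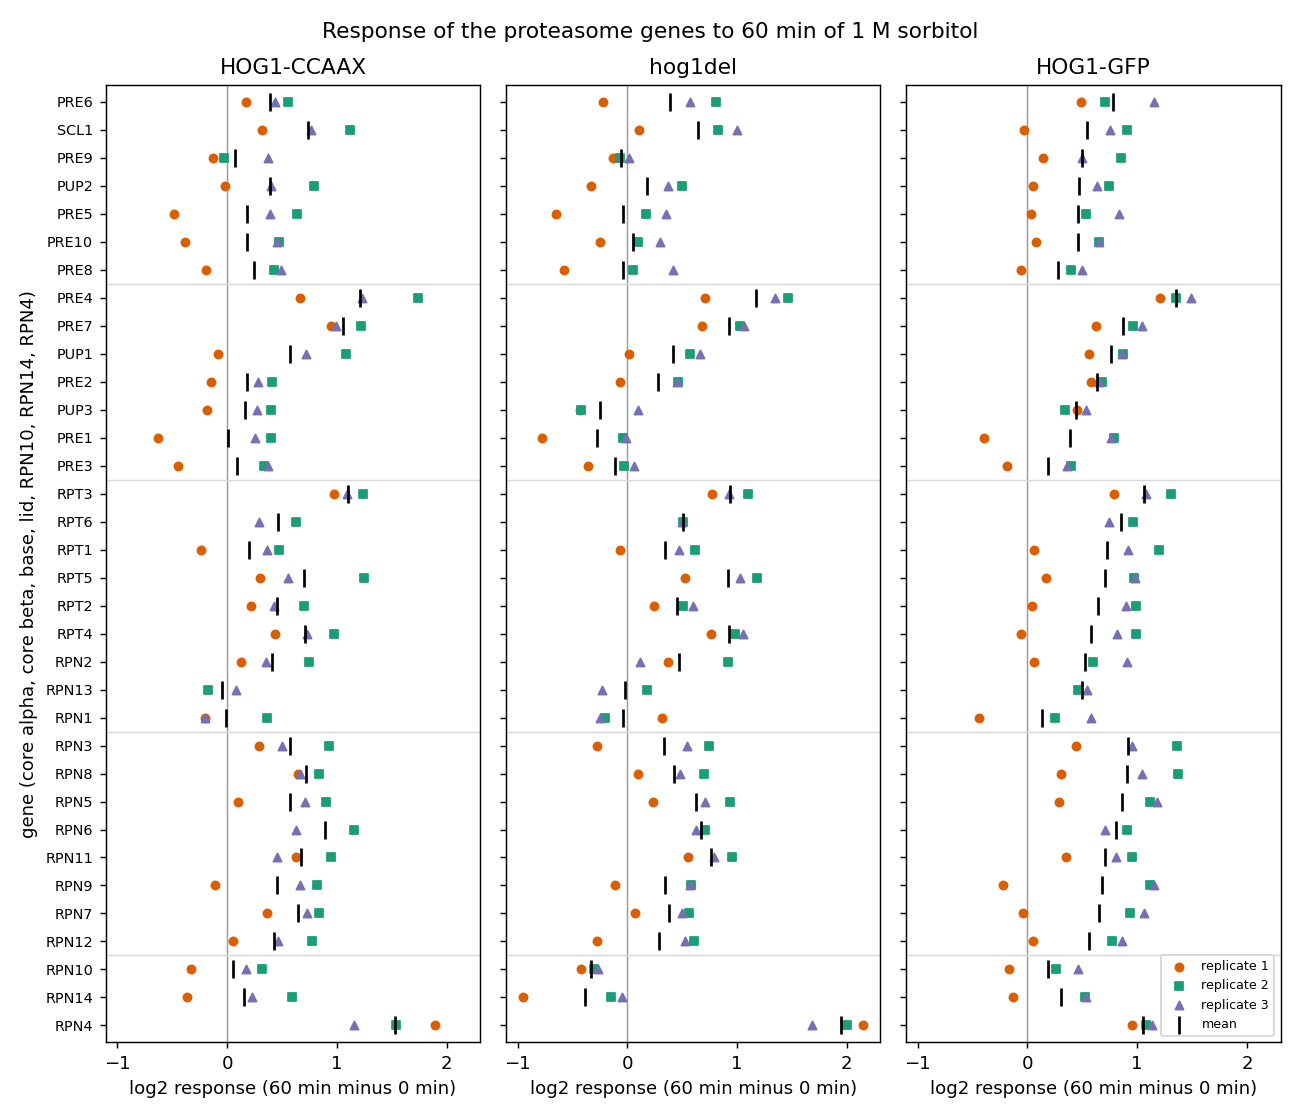
Response (log2 level at 60 min minus 0 min) of each of the 34 genes in HOG1-CCAAX, hog1del and HOG1-GFP, one row per gene, with a marker for each biological replicate and a vertical tick at the mean. Grey lines separate alpha ring, beta ring, base, lid and the other 3 genes. Replicate 1 lies to the left of the other replicates for most subunit genes, whereas for RPN4 it lies to the right in HOG1-CCAAX and hog1del.

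The counts depended on which replicates entered. In replicate 1 the median response of the 30 genes other than RPN4 was 0.02 in HOG1-CCAAX, -0.07 in hog1del and 0.06 in HOG1-GFP, with 15, 14 and 20 of the 30 genes above 0. In replicate 2 the medians were 0.76, 0.57 and 0.86, and in replicate 3 they were 0.45, 0.49 and 0.85, in the same strains. In HOG1-GFP all 30 genes were above 0 in replicate 2 and in replicate 3. The small response of replicate 1 was seen in each of its technical profiles, whose medians lay between -0.21 and 0.13 in HOG1-CCAAX, -0.18 and 0.02 in hog1del, and 0.09 and 0.17 in HOG1-GFP. In the same profiles the RPN4 response lay between 1.57 and 2.14 in HOG1-CCAAX, 2.01 and 2.15 in hog1del, where 1 profile had no value, and 0.93 and 0.98 in HOG1-GFP.

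Without replicate 1, 28, 21 and 31 of the 31 genes rose in HOG1-CCAAX, hog1del and HOG1-GFP, beside 39.5%, 36.0% and 36.2% of all genes. Without replicate 2 the counts were 4, 5 and 4, beside 13.7%, 13.1% and 11.2% of all genes, and without replicate 3 they were 4, 3 and 4, beside 14.1%, 11.2% and 9.87%. PRE7, RPT3 and RPN4 passed with each replicate left out in turn in each strain, and PRE4 did so in HOG1-CCAAX and HOG1-GFP but not in hog1del, where its adjusted p without replicate 3 was 0.0539.

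The levels at 0 min also differed between replicates in the core. The median core level at 0 min was 0.26, 0.28 and 0.22 in replicate 1 of HOG1-CCAAX, hog1del and HOG1-GFP, and lay between -0.56 and -0.44 in replicates 2 and 3 of the 3 strains. The core thus started higher relative to the pool in replicate 1 in each strain. Base and lid medians at 0 min lay between -0.31 and -0.02 in replicate 1 and between -0.40 and -0.04 in the others. What made replicate 1 differ was not tested.

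Compared side by side, the lid had the highest median response in HOG1-CCAAX and HOG1-GFP and the base in hog1del, while the core had the lowest in each strain. The median over the 14 core genes was -0.14, 0.51 and 0.42 in replicates 1, 2 and 3 of HOG1-CCAAX, -0.23, 0.31 and 0.39 in hog1del, and 0.11, 0.72 and 0.70 in HOG1-GFP. Over the 7 base genes with complete values it was 0.22, 0.75 and 0.43 in HOG1-CCAAX, 0.37, 0.92 and 0.60 in hog1del, and 0.06, 0.99 and 0.91 in HOG1-GFP. Over the 7 lid genes with complete values it was 0.29, 0.84 and 0.66 in HOG1-CCAAX, 0.07, 0.70 and 0.54 in hog1del, and 0.29, 1.12 and 1.04 in HOG1-GFP. As means over replicates, the core, base and lid medians were 0.26 ± 0.35, 0.47 ± 0.27 and 0.60 ± 0.28 in HOG1-CCAAX, 0.16 ± 0.34, 0.63 ± 0.28 and 0.44 ± 0.33 in hog1del, and 0.51 ± 0.35, 0.65 ± 0.52 and 0.82 ± 0.46 in HOG1-GFP (SD, n = 3). The ranges of core, base and lid overlapped in each strain, and their order was not tested. Without replicate 1 the medians of fitted responses for core, base and lid were 0.48, 0.56 and 0.74 in HOG1-CCAAX, 0.35, 0.56 and 0.59 in hog1del, and 0.68, 0.95 and 1.13 in HOG1-GFP, so that the lid was highest and the core lowest in each strain. The core median lay below the base median in 3 of 3 replicates of HOG1-CCAAX and hog1del and in 2 of 3 of HOG1-GFP.

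**Figure D3:**
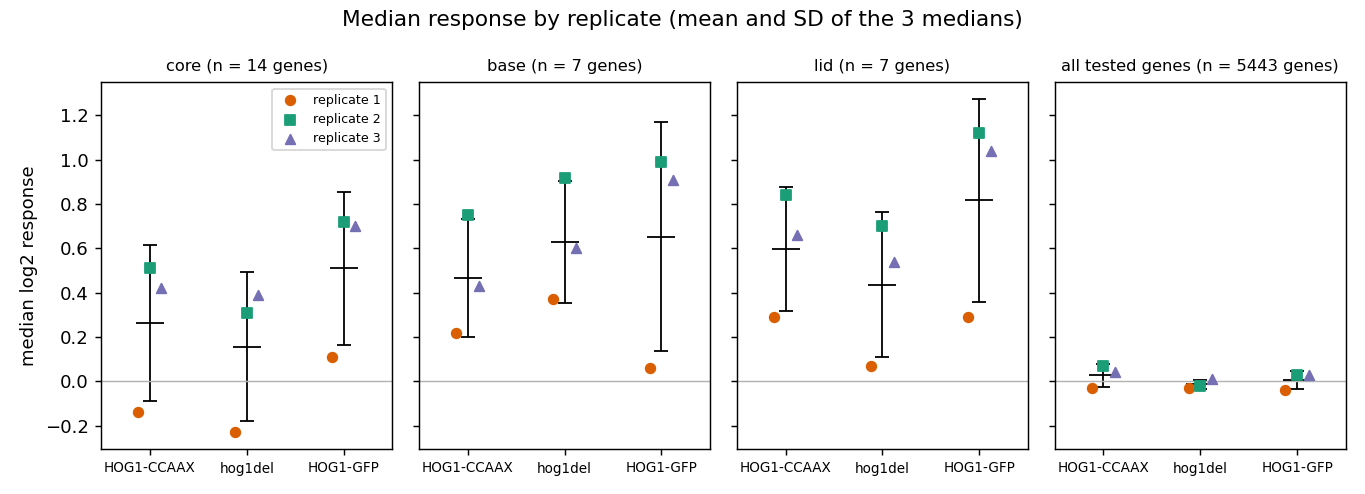
Median log2 response of core, base and lid genes with complete values, and of all 5443 tested genes, in HOG1-CCAAX, hog1del and HOG1-GFP. Points are the medians in the 3 biological replicates, ticks their mean and bars the SD. In HOG1-GFP replicates 2 and 3 lay at 0.70 to 1.12 in core, base and lid, and replicate 1 at 0.06 to 0.29, while the medians of all tested genes lay between -0.04 and 0.07.

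In the core, 4 of 14 genes rose in HOG1-CCAAX, 3 in hog1del and 7 in HOG1-GFP, beside 28.1%, 25.6% and 24.0% of all genes. The counts in HOG1-CCAAX and hog1del were thus near the background. In the fit with the block 6, 6 and 13 rose in these strains, beside 35.9%, 34.3% and 33.5% of all genes. For HOG1-GFP this left out PRE3. Of the alpha ring, SCL1 rose in HOG1-CCAAX and hog1del, and PRE6 and PRE9 rose in HOG1-GFP. Of the beta ring, PRE4 and PRE7 rose in the 3 strains, PUP1 in HOG1-CCAAX and HOG1-GFP, and PRE2 and PUP3 in HOG1-GFP. PRE4 (YFR050C), a beta subunit without a protease site of its own, had the highest mean of the subunit genes in each strain. It responded by 0.66, 1.74 and 1.23 in HOG1-CCAAX, by 0.71, 1.46 and 1.35 in hog1del, and by 1.21, 1.35 and 1.49 in HOG1-GFP. Each of these values was above 0.6, and the strains overlapped. The fold was 2.32 in HOG1-CCAAX (1.21 ± 0.54, adjusted p = 0.0011), 2.26 in hog1del (1.18 ± 0.40, adjusted p = 0.0015) and 2.55 in HOG1-GFP (1.35 ± 0.14, adjusted p = 7.5e-04). PRE7 (YBL041W), another beta subunit without a protease site, responded by 0.95, 1.22 and 0.99 in HOG1-CCAAX, by 0.68, 1.03 and 1.06 in hog1del, and by 0.62, 0.96 and 1.04 in HOG1-GFP. Replicate 1 of PRE7 was close to the other replicates in HOG1-CCAAX and lower in hog1del and HOG1-GFP. Its mean was 1.05 ± 0.15 in HOG1-CCAAX, 0.93 ± 0.21 in hog1del and 0.87 ± 0.22 in HOG1-GFP (adjusted p = 1.9e-04, 4.6e-04 and 7.1e-04).

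The 3 genes of the catalytic beta subunits responded less than PRE4 and PRE7 in each strain by mean. PRE2 (YPR103W), which encodes the chymotrypsin-like subunit, responded by -0.15, 0.41 and 0.28 in HOG1-CCAAX, by -0.07, 0.46 and 0.45 in hog1del, and by 0.58, 0.68 and 0.65 in HOG1-GFP. The HOG1-GFP values all lay above those of the other strains, and HOG1-GFP passed the test (0.64 ± 0.05, adjusted p = 0.0074), while HOG1-CCAAX (adjusted p = 0.331) and hog1del (adjusted p = 0.143, and 0.0393 with the block) did not. The difference of response from HOG1-GFP was -0.46 in HOG1-CCAAX (interval -0.93 to 0.02, adjusted p = 0.682) and -0.36 in hog1del (interval -0.84 to 0.12, adjusted p = 0.465). PUP1 (YOR157C), the trypsin-like subunit, responded by -0.08, 1.08 and 0.72 in HOG1-CCAAX, by 0.02, 0.57 and 0.66 in hog1del, and by 0.56, 0.87 and 0.86 in HOG1-GFP. It rose in HOG1-CCAAX (adjusted p = 0.0463) and HOG1-GFP (adjusted p = 0.0163) and did not pass in hog1del (adjusted p = 0.127, and 0.0117 with the block), and its strains overlapped. PRE3 (YJL001W), the caspase-like subunit, responded by -0.45, 0.34 and 0.37 in HOG1-CCAAX, by -0.36, -0.03 and 0.06 in hog1del, and by -0.19, 0.40 and 0.36 in HOG1-GFP. Of the core genes it had the lowest mean in HOG1-GFP, 0.19 ± 0.33, and it passed in no strain, with or without the block.

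The other beta genes were PRE1 and PUP3. PRE1 (YER012W) averaged 0.01 in HOG1-CCAAX, -0.28 in hog1del and 0.38 in HOG1-GFP and passed in none, while with the block it fell in hog1del (adjusted p = 0.0380) and rose in HOG1-GFP (adjusted p = 0.0084). PUP3 (YER094C) averaged 0.16 in HOG1-CCAAX, -0.25 in hog1del and 0.44 in HOG1-GFP and rose in HOG1-GFP (adjusted p = 0.0396). Both had the sign in hog1del opposite to that in HOG1-GFP. In the alpha ring, whose subunits form the gate of the core, mean responses in HOG1-GFP lay between 0.28 and 0.78. PRE6 averaged 0.38 in HOG1-CCAAX, 0.39 in hog1del and 0.78 in HOG1-GFP, and SCL1 averaged 0.73, 0.65 and 0.55 in the same strains. PRE9, the one alpha gene that yeast can live without, averaged 0.07 in HOG1-CCAAX, -0.06 in hog1del and 0.50 in HOG1-GFP. The other alpha genes, PUP2, PRE5, PRE8 and PRE10, passed in no strain without the block, and with it each rose in HOG1-GFP and PUP2 also in HOG1-CCAAX. PUP2 averaged 0.39, 0.18 and 0.47 in HOG1-CCAAX, hog1del and HOG1-GFP. PRE5 averaged 0.18, -0.04 and 0.46, PRE10 0.18, 0.05 and 0.46, and PRE8 0.24, -0.04 and 0.28 in the same strains. Thus 6 of 14 core genes had a mean below 0 in hog1del, against 0 of 14 in HOG1-CCAAX and 0 of 14 in HOG1-GFP. Of all 5443 genes, 2755, 2636 and 2746 had a mean below 0 in hog1del, HOG1-CCAAX and HOG1-GFP. Without replicate 1 the core counts below 0 were 3, 0 and 0 of 14 in these strains. The counts over all 5443 genes were then 2729, 2590 and 2639.

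In the base, 3 of 7 genes with complete values rose in HOG1-CCAAX, 3 in hog1del and 5 in HOG1-GFP, beside 28.1%, 25.6% and 24.0% of all genes. With the replicate as a block 5, 6 and 6 rose, beside 35.9%, 34.3% and 33.5% of all genes. The ATPase genes RPT3, RPT4 and RPT5 rose in the 3 strains, and RPT1 and RPT2 in HOG1-GFP. RPT3 (YDR394W) responded by 0.97, 1.24 and 1.09 in HOG1-CCAAX, by 0.77, 1.10 and 0.93 in hog1del, and by 0.79, 1.31 and 1.08 in HOG1-GFP. It was among the most even of the genes over replicates and strains. Its fold was 2.14 in HOG1-CCAAX (1.10 ± 0.14, adjusted p = 1.4e-04), 1.91 in hog1del (0.93 ± 0.16, adjusted p = 4.3e-04) and 2.09 in HOG1-GFP (1.06 ± 0.26, adjusted p = 2.3e-04). RPT1 (YKL145W) responded by -0.24, 0.47 and 0.36 in HOG1-CCAAX, by -0.07, 0.62 and 0.47 in hog1del, and by 0.06, 1.20 and 0.92 in HOG1-GFP. In each strain its replicate 1 was near or below 0, and its mean in HOG1-GFP was 0.73 ± 0.60 (1.66-fold, adjusted p = 0.0293).

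RPT4 and RPT5 were the base genes with a higher mean in hog1del than in HOG1-GFP. RPT4 averaged 0.71 in HOG1-CCAAX, 0.93 in hog1del and 0.58 in HOG1-GFP, and RPT5 averaged 0.70, 0.91 and 0.71 in the same strains. The differences of response, hog1del minus HOG1-GFP, did not pass for either gene. RPT2 averaged 0.45 in HOG1-CCAAX, 0.45 in hog1del and 0.64 in HOG1-GFP. RPT6, measured in replicates 2 and 3 only, averaged 0.46, 0.51 and 0.85 (n = 2 each) and rose in hog1del (adjusted p = 0.0404) and HOG1-GFP (adjusted p = 0.0071) in the fit that admitted it. RPN1 and RPN2 encode scaffold subunits that are not ATPases. RPN2 averaged 0.41, 0.47 and 0.52 in HOG1-CCAAX, hog1del and HOG1-GFP and passed in none without the block and in each with it (adjusted p = 0.0274, 0.0154 and 0.0092). RPN1 (YHR027C), the scaffold that receives ubiquitin-like domains, responded by -0.20, 0.36 and -0.20 in HOG1-CCAAX, by 0.32, -0.20 and -0.25 in hog1del, and by -0.44, 0.25 and 0.58 in HOG1-GFP. Its replicates took both signs in each strain, and its mean in HOG1-GFP, 0.13 ± 0.52, was the lowest of the base genes tested. RPN13 (YLR421C), a ubiquitin receptor, responded in replicates 2 and 3 by -0.17 and 0.08 in HOG1-CCAAX, by 0.18 and -0.23 in hog1del, and by 0.46 and 0.54 in HOG1-GFP, where it did not pass (adjusted p = 0.0551).

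In the lid, 3 of 7 genes with complete values rose in HOG1-CCAAX, 2 in hog1del and 5 in HOG1-GFP, beside 28.1%, 25.6% and 24.0% of all genes. The hog1del count was thus near the background. Mean responses were above 0 for 7 of 7 in each strain, beside 2807, 2688 and 2697 of all 5443 genes. With the replicate as a block 7 of 7 rose in each strain, beside 35.9%, 34.3% and 33.5% of all genes. The differences between strains in the calls below are therefore those of the fit without it. RPN11 (YFR004W), the deubiquitinating subunit, rose in the 3 strains, with means of 0.68 ± 0.26 in HOG1-CCAAX, 0.76 ± 0.20 in hog1del and 0.71 ± 0.32 in HOG1-GFP (adjusted p = 0.0055, 0.0030 and 0.0052). RPN3 (YER021W), a structural subunit, responded by 0.29, 0.93 and 0.50 in HOG1-CCAAX, by -0.28, 0.74 and 0.54 in hog1del, and by 0.44, 1.36 and 0.95 in HOG1-GFP. Replicate by replicate, HOG1-GFP was the highest strain. RPN3 rose in HOG1-GFP (0.92 ± 0.46, 1.89-fold, adjusted p = 0.0104). In HOG1-CCAAX its adjusted p was 0.0614, and 7.7e-04 with the block, and in hog1del it was 0.251, and 0.0203 with the block. RPN8 (YOR261C), the partner of Rpn11, responded by 0.65, 0.84 and 0.66 in HOG1-CCAAX, by 0.10, 0.70 and 0.48 in hog1del, and by 0.31, 1.37 and 1.04 in HOG1-GFP. It rose in HOG1-CCAAX (0.72 ± 0.11, adjusted p = 0.0123) and HOG1-GFP (0.91 ± 0.54, adjusted p = 0.0045) and did not pass in hog1del (0.43 ± 0.30, adjusted p = 0.0909, and 0.0106 with the block). RPN12 (YFR052W), another structural subunit, responded by 0.05, 0.77 and 0.46 in HOG1-CCAAX, by -0.28, 0.61 and 0.53 in hog1del, and by 0.05, 0.77 and 0.86 in HOG1-GFP. It had the lowest mean of the lid genes tested in HOG1-GFP, 0.56 ± 0.44, and passed in no strain without the block and in each with it (adjusted p = 0.0041, 0.0308 and 7.6e-04).

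RPN5 averaged 0.57 in HOG1-CCAAX, 0.63 in hog1del and 0.86 in HOG1-GFP and rose in hog1del and HOG1-GFP. RPN7 averaged 0.64, 0.38 and 0.65 in the same strains and rose in HOG1-CCAAX and HOG1-GFP. RPN9 averaged 0.46, 0.35 and 0.68 and passed in none without the block and in each with it (adjusted p = 0.0056, 0.0237 and 4.7e-04). These 3 genes encode structural subunits of the lid, and so does RPN6, which had n = 2. RPN6 averaged 0.90 in HOG1-CCAAX, 0.67 in hog1del and 0.81 in HOG1-GFP and rose in the 3 strains in the fit that admitted it (adjusted p = 0.0074, 0.0227 and 0.0129).

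RPN10 and RPN14 belong to neither core, base nor lid. RPN10 (YHR200W), a ubiquitin receptor at the hinge of base and lid, responded by -0.33, 0.32 and 0.17 in HOG1-CCAAX, by -0.42, -0.30 and -0.27 in hog1del, and by -0.17, 0.26 and 0.46 in HOG1-GFP. RPN14 (YGL004C), the assembly chaperone, responded by -0.37, 0.59 and 0.23 in HOG1-CCAAX, by -0.95, -0.15 and -0.05 in hog1del, and by -0.13, 0.52 and 0.53 in HOG1-GFP. The hog1del values of both genes lay below 0 in 3 of 3 replicates, and replicates 2 and 3 lay above 0 in the other strains. Neither passed in any strain, with adjusted p in hog1del of 0.113 for RPN10 and 0.187 for RPN14. With the replicate as a block both fell in hog1del (adjusted p = 0.0225 and 0.0077), and RPN14 rose in HOG1-GFP (adjusted p = 0.0252).

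Responses of the 30 genes other than RPN4 followed a similar order in the 3 strains. Across genes, mean responses correlated at 0.83 between HOG1-CCAAX and HOG1-GFP, at 0.80 between hog1del and HOG1-GFP, and at 0.91 between HOG1-CCAAX and hog1del (Pearson, 30 genes). Genes are not independent replicates, and the strains of a replicate share its number and reference pool.

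In the fit without the replicate as a block, no proteasome gene passed a test of the difference of response between strains. The tests of levels further on had the replicate as a block, so their counts are not to be set against these. For hog1del minus HOG1-GFP 0 of 31 passed by limma beside 2.57% of all genes. Under an unadjusted p of 0.05 were 3, beside 861 of all 5443 genes. For HOG1-CCAAX minus HOG1-GFP 0 passed beside 0.331% of all genes, and for HOG1-CCAAX minus hog1del 0 passed beside 0.129%. In both, 0 were under the unadjusted p, beside 416 and 426 of 5443. The median difference over the 31 genes was -0.30, -0.14 and 0.13 in the order given. Against HOG1-GFP, 25 and 26 of 31 genes lay below 0 in hog1del and HOG1-CCAAX, beside 2844 and 2628 of all 5443 genes. In hog1del minus HOG1-GFP the core had a median of -0.35, the base of -0.13 and the lid of -0.27. Without replicate 1 the medians were -0.25, -0.24 and -0.46, with the lid lowest in place of the core, and without replicate 3 the base median was 0.16. With the replicate as a block, 5 genes passed in hog1del minus HOG1-GFP, beside 14.8% of all genes. RPN4 was higher by 0.89, and PRE1 (-0.66), PUP3 (-0.69), RPN14 (-0.69) and RPN3 (-0.58) were lower. Without replicate 1, 9 passed, beside 21.3% of all genes, with RPN4 higher and PRE1, PRE9, RPN7, RPN8, RPN9, RPN10, RPN14 and RPT1 lower in hog1del. The 8 lower genes were 25.8% of the 31, beside 11.6% of all genes lower, and RPN4 stood beside 9.70% higher. In HOG1-CCAAX minus HOG1-GFP, RPT1 passed without replicate 1, 1 gene beside 8.95% of all genes.

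Before the shock no proteasome gene passed a test between strains. At 0 min 0 of 31 genes passed in hog1del minus HOG1-GFP, beside 0.937% of all genes, with 2 under an unadjusted p of 0.05. In HOG1-CCAAX minus HOG1-GFP 0 passed beside 0.276% of all genes and 2 were under the unadjusted p, and in HOG1-CCAAX minus hog1del 0 passed beside 0.276% and 1 was under it. Of all 5443 genes, 596, 467 and 659 were under the unadjusted p in these comparisons. Differences lay between -0.40 and 0.21 for hog1del minus HOG1-GFP and between -0.28 and 0.26 for HOG1-CCAAX minus HOG1-GFP, with medians of 0.03 and -0.01.

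At 60 min, hog1del had less transcript than HOG1-GFP for 11 of 31 proteasome genes, and more for RPN4 alone. This was 35.5% of the 31 genes lower, beside 13.3% of all genes, and 3.23% higher, beside 13.9% of all genes. The core held 7 of the 11, namely PRE1, PRE3, PRE5, PRE8, PRE9, PRE10 and PUP3. Of its differences 14 of 14 lay below 0, beside 2871 of all 5443 genes. The lid held RPN3 and RPN8, the base held 0 of 7 genes with complete values by limma, and RPN10 and RPN14 made up the rest. In the base 1 gene was under an unadjusted p of 0.05, beside 2195 of all 5443 genes. The core, base and lid medians were -0.36, -0.09 and -0.33. Without replicate 1 5 of 14 core genes, 2 of 7 base genes and 5 of 7 lid genes were lower, beside 19.2% of all genes. The core then held no more calls than the lid. Of the core differences 12 of 14 lay below 0, beside 2910 of all 5443 genes, and the core, base and lid medians were -0.29, -0.09 and -0.43. The genes that rose in all 3 strains did not pass here apart from RPN4. Their differences were -0.04 for PRE4, -0.08 for PRE7, -0.09 for RPT3, -0.05 for RPT4, 0.04 for RPT5 and 0.02 for RPN11.

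PUP3, a beta subunit, had the lowest difference. Its levels at 60 min were -0.53, -0.73 and -0.39 in hog1del, against 0.22, -0.05 and 0.15 in HOG1-GFP, a difference of -0.65 ± 0.11 (1.57-fold lower, interval -0.98 to -0.33, adjusted p = 0.0096). PRE1, also a beta subunit, had levels of -0.69, -0.61 and -0.57 in hog1del, against -0.42, 0.21 and 0.27 in HOG1-GFP, a difference of -0.64 ± 0.33 (1.56-fold lower, adjusted p = 0.0100). For both genes the 3 hog1del samples lay below the 3 HOG1-GFP samples. RPN10 had levels of -0.27, -0.61 and -0.54 in hog1del, against 0.24, -0.06 and 0.25 in HOG1-GFP, a difference of -0.61 ± 0.15 (1.53-fold lower, adjusted p = 0.0064). RPN14 had levels of -0.39, 0.04 and 0.16 in hog1del, against 0.21, 0.67 and 0.77 in HOG1-GFP, a difference of -0.61 ± 0.02 (1.53-fold lower, adjusted p = 0.0055). These did not overlap either, and the RPN14 difference was close to equal in the 3 replicates.

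The catalytic gene PRE3 had levels of 0.13, 0.11 and 0.14 in hog1del, against 0.44, 0.58 and 0.60 in HOG1-GFP (-0.41 ± 0.08, adjusted p = 0.0378). The alpha gene PRE10 had levels of 0.23, -0.20 and -0.08 in hog1del, against 0.58, 0.19 and 0.31 in HOG1-GFP (-0.38 ± 0.03, adjusted p = 0.0305). PRE5 had levels of -0.05, -0.62 and -0.39 in hog1del, against 0.50, -0.27 and 0.09 in HOG1-GFP (-0.46 ± 0.10, adjusted p = 0.0332). PRE3 did not overlap between strains, while PRE10 and PRE5 overlapped across replicates and were lower in hog1del within each replicate. PRE8 had levels of 0.00, -0.43 and -0.15 in hog1del, against 0.42, 0.02 and 0.12 in HOG1-GFP (-0.38 ± 0.09, adjusted p = 0.0332). PRE9 had levels of 0.26, 0.65 and 0.78 in hog1del, against 0.50, 1.40 and 1.19 in HOG1-GFP (-0.47 ± 0.26, adjusted p = 0.0219). Both were lower in hog1del in 3 of 3 replicates. Of the lid genes, RPN3 had levels of -0.43, 0.91 and 0.78 in hog1del, against -0.04, 1.29 and 1.24 in HOG1-GFP (-0.41 ± 0.04, adjusted p = 0.0464). RPN8 had levels of -0.14, 0.54 and 0.34 in hog1del, against 0.12, 1.03 and 0.95 in HOG1-GFP (-0.45 ± 0.17, adjusted p = 0.0377). Both were again lower in 3 of 3 replicates, though replicate 1 had lower levels in both strains. RPN13, with n = 2, had levels of 1.53 and 0.95 in hog1del, against 1.93 and 1.80 in HOG1-GFP (-0.62 ± 0.32, adjusted p = 0.0456 in the fit that admitted it).

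These calls rest on comparing strains within a replicate. Without the replicate as a block PUP3 and RPN10 passed as lower, 6.45% of the 31 genes beside 3.42% of all genes lower. RPN4 then did not pass (limma, adjusted p = 0.0610), and 8.01% of all genes passed in either direction. Without replicate 1, 14 genes were lower, which is 45.2% of the 31 beside 19.2% of all genes, and RPN4 was higher, beside 17.7% of all genes. PRE5 (adjusted p = 0.0508) and PRE8 (adjusted p = 0.0520) then missed the threshold, as they did with any replicate left out, and RPT1, RPN1, RPN5, RPN7 and RPN9 passed it. Without replicate 2, PUP3, RPN10, RPN14 and RPN4 passed, 4 genes beside 9.90% of all genes, and without replicate 3 only RPN4 passed, beside 6.98%. RPN4 thus kept its call with each replicate left out. At 60 min HOG1-CCAAX was lower than HOG1-GFP for 26 of the 31 genes, beside 2515 of all 5443 genes. It was higher than hog1del for 21, beside 3079 of 5443. No proteasome gene was called in either comparison. HOG1-CCAAX minus HOG1-GFP passed for 0 of 31 genes beside 11.4% of all genes, with a median of -0.19. Under an unadjusted p of 0.05 were 6 of the 31, beside 1491 of all 5443 genes. HOG1-CCAAX minus hog1del passed for 0 of 31 beside 11.2% of all genes, with a median of 0.16. Under the unadjusted p were 4, beside 1622 of 5443. Over both directions neither unadjusted count stood above the background. The 6 in HOG1-CCAAX minus HOG1-GFP were all lower, beside 647 of 5443 genes lower, and so stood above the background of that direction. Of the 4 in HOG1-CCAAX minus hog1del, 3 were higher, beside 947 of 5443, and 1 was lower, beside 675. Without replicate 1, 2 genes passed in HOG1-CCAAX minus HOG1-GFP, beside 17.8% of all genes, and 3 in HOG1-CCAAX minus hog1del, beside 24.3%. PUP3, for example, had levels of -0.46, -0.03 and -0.19 in HOG1-CCAAX at 60 min, and RPN14 had -0.26, 0.57 and 0.35.

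**Figure D4:**
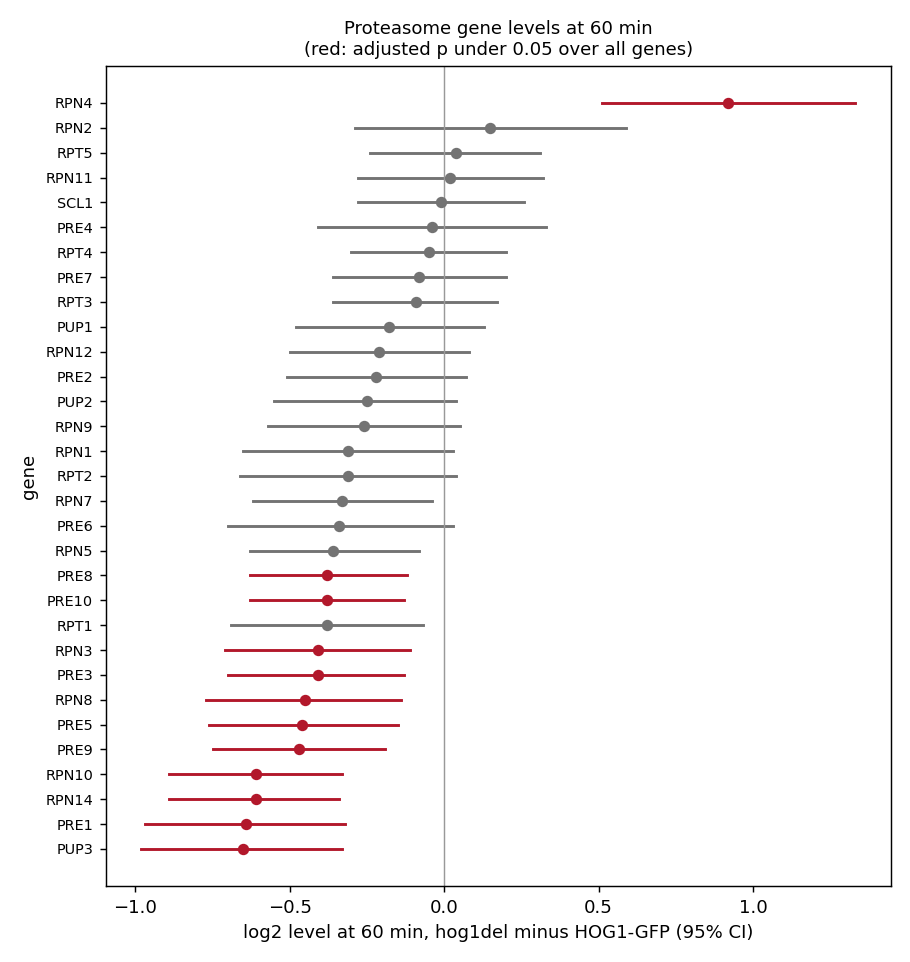
Difference of log2 level at 60 min, hog1del minus HOG1-GFP, for the 31 proteasome genes with complete values, with points for the estimate and lines for the 95% confidence interval from limma with the replicate as a block. Red marks the 12 genes past an adjusted p of 0.05 over all genes. RPN4 is alone to the right at 0.92, and the 11 genes in red to the left lie between -0.65 and -0.38.

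Genes that act with the proteasome were taken from lists of their roles. The shares of all genes to set beside their counts without the block are again 28.1%, 25.6% and 24.0% higher and 26.1%, 27.4% and 22.7% lower in HOG1-CCAAX, hog1del and HOG1-GFP. Of 8 assembly factors, 2 rose in the 3 strains, NAS2 and, named after its values were seen, HSM3, a share near that background. With the replicate as a block 3, 4 and 4 rose in HOG1-CCAAX, hog1del and HOG1-GFP. The shares of all genes in that fit were 35.9%, 34.3% and 33.5% higher and 33.6%, 35.5% and 32.6% lower. These apply to the counts with the block in the lists below as well. The median response of the list was 0.24, 0.22 and 0.18 in HOG1-CCAAX, hog1del and HOG1-GFP. NAS2 (YIL007C), a chaperone of the base, responded by 1.44, 1.73 and 1.71 in HOG1-CCAAX, by 0.93, 1.18 and 1.53 in hog1del, and by 1.30, 1.25 and 1.48 in HOG1-GFP, with replicate 1 within the range of the others in HOG1-GFP. UMP1, the chaperone of core maturation, responded by -0.29, 0.69 and 1.09 in HOG1-CCAAX, by -0.35, 0.58 and 0.66 in hog1del, and by 0.31, 0.93 and 0.86 in HOG1-GFP. It passed in no strain without the block (adjusted p = 0.156, 0.384 and 0.0639) and in each with it (adjusted p = 0.0036, 0.0474 and 4.3e-04), its replicate 1 was the lowest in each strain, and at 60 min it was lower in hog1del than in HOG1-GFP (-0.45 ± 0.11, adjusted p = 0.0477). IRC25, a core chaperone, fell in HOG1-CCAAX (-0.53) and hog1del (-0.79), and is named here after its values were seen.

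Of 8 proteins that associate with the proteasome, 6 had complete values. Of these, 4 rose and 1 fell in HOG1-CCAAX, 3 rose and 1 fell in hog1del, and 5 rose and 1 fell in HOG1-GFP. With the replicate as a block 5, 3 and 5 rose in these strains, and 1 fell in each. SPG5 (YMR191W), a regulator of the proteasome in stationary phase, had the highest response, 1.90, 2.98 and 3.01 in HOG1-CCAAX, 1.93, 3.10 and 3.19 in hog1del, and 1.88, 2.65 and 2.71 in HOG1-GFP. CIC1 (YHR052W), named as a proteasome adaptor and also a factor of ribosome assembly, fell in the 3 strains, with responses of -1.32, -2.30 and -2.20 in HOG1-CCAAX, -1.11, -1.52 and -1.65 in hog1del, and -1.48, -1.34 and -1.77 in HOG1-GFP. Neither gene had a replicate of the opposite sign. Of the 7 genes of ubiquitin shuttles and the Cdc48 complex, which extracts ubiquitinated proteins, 5 rose in each strain. With the replicate as a block 5 again rose in each strain, and 1 fell in HOG1-CCAAX. UFD1 averaged 0.97 ± 0.77 in HOG1-CCAAX, 0.85 ± 0.53 in hog1del and 1.24 ± 0.58 in HOG1-GFP, and NPL4, its partner, averaged 0.89 ± 0.28, 0.48 ± 0.27 and 0.89 ± 0.24 (each passed).

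Of 13 genes for ubiquitin and its activating and conjugating enzymes, 6 rose in HOG1-CCAAX, 4 rose and 1 fell in hog1del, and 6 rose in HOG1-GFP, of which the count higher in hog1del was near the background. In the fit with the block 9, 6 and 8 rose and 2, 1 and 1 fell in these strains. UBI4 (YLL039C), the polyubiquitin gene, had the widest gap between replicates. Its levels at 60 min in replicates 1, 2 and 3 were 0.72, 1.58 and 0.71 in HOG1-CCAAX, 0.48, 0.56 and 1.21 in hog1del, and 0.55, 0.67 and 0.23 in HOG1-GFP. At 0 min they were 0.66, -1.82 and -2.03 in HOG1-CCAAX, 0.72, -2.30 and -2.46 in hog1del, and 0.53, -2.30 and -2.21 in HOG1-GFP. Replicate 1 was thus high already at 0 min in each strain, and its responses were 0.06, -0.24 and 0.02 in HOG1-CCAAX, hog1del and HOG1-GFP, beside 2.44 to 3.67 in the other replicates. UBI4 did not pass (adjusted p = 0.0640, 0.0620 and 0.105) and passed in the 3 strains with the replicate as a block (adjusted p = 3.0e-06, 3.2e-06 and 1.1e-05). UBC5, a conjugating enzyme, averaged 1.01 ± 0.48 in HOG1-CCAAX, 0.65 ± 0.48 in hog1del and 1.32 ± 0.25 in HOG1-GFP and rose in each.

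Of 6 genes that regulate RPN4, 3 rose and 1 fell in HOG1-CCAAX and in HOG1-GFP, and 2 rose and 1 fell in hog1del. The counts that fell, and the count that rose in hog1del, were near the shares over all genes. With the replicate as a block 4, 3 and 4 rose in HOG1-CCAAX, hog1del and HOG1-GFP, and 1 fell in each. YAP1 (YML007W), an oxidative stress factor known to activate RPN4, responded by 1.63, 1.25 and 1.03 in HOG1-CCAAX, by 1.68, 1.39 and 1.35 in hog1del, and by 1.21, 1.10 and 1.03 in HOG1-GFP. Like RPN4, it rose in each strain and replicate (adjusted p = 6.8e-05, 4.3e-05 and 2.2e-04). At 60 min YAP1 was higher in hog1del than in HOG1-GFP (0.45 ± 0.26, adjusted p = 0.0344). Without replicate 1, 0 of these 6 genes passed as higher in that comparison, and without the block 0 passed in either direction. PDR3, a drug resistance factor that also activates RPN4, averaged 0.63 ± 0.23 in HOG1-CCAAX, 0.45 ± 0.34 in hog1del and 0.67 ± 0.38 in HOG1-GFP and did not pass in hog1del (adjusted p = 0.0593, and 0.0036 with the block). HSF1, the heat shock factor, averaged 0.47 ± 0.61, -0.01 ± 0.59 and 0.60 ± 0.39 and passed in none without the block and in HOG1-CCAAX and HOG1-GFP with it (adjusted p = 0.0039 and 8.5e-04), and was lower at 60 min in hog1del than in HOG1-GFP (-0.53 ± 0.06, adjusted p = 0.0190). UBR2, a ubiquitin ligase that marks Rpn4 for degradation, was the gene that fell, with mean responses of -0.55 in HOG1-CCAAX, -0.86 in hog1del and -0.48 in HOG1-GFP, and is named here after its values were seen.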

How the data were processed

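Total RNA was amplified and a Cy3-labelled sample was hybridized against a Cy5-labelled reference pool, per the labels' protocols. The authors averaged technical arrays per biological replicate into log2 ratios, per the series' design text. In these deposited log2 tables the reference is on top, as their sign relative to the values per array and to HOG1 in hog1del shows, so signs were turned once. The sources used here do not state the channel scaling or the probes' build, so no coordinates are printed. The array number limits the precision.

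Names came from RefSeq locus tags (5804 of 6278 open reading frames matched). limma 3.58.1 in R 4.3.3 was fitted to the 5443 genes with complete values, two-sided, with Benjamini-Hochberg adjustment and a threshold of 0.05. Responses were fitted with strain as the term, and levels with strain and replicate as a block. The response fit was tried on simulated data with independent noise in each sample. That noise held no effect shared by the samples of a replicate, so the trial does not cover such effects. The labels call the replicates biological without saying what separated them, so p-values measure the spread between these samples. Levels were deposited in a table for each replicate. The lowest correlation between columns was -0.46, between hog1del at 0 min and HOG1-CCAAX at 60 min; the labels state the same dyes for each array, so the direction was kept. Responses of equal replicate number deviated from their strain means together (r of 0.44 to 0.82), and the numbers were taken as pairing the samples. Responses of unequal number gave r of -0.78 to 0.61, a range that overlaps the former, and the labels do not state a pairing. The members and lists were chosen with earlier results of these data known. Genes with values per replicate were RPN4, the catalytic subunits, the 2 highest and the lowest in HOG1-GFP in each of core, base and lid, RPN10, RPN13, RPN14 and proteasome genes that passed between strains. Related genes were named by rule as the 2 of each list with the largest mean change in HOG1-GFP. UBI4, UMP1, YAP1, PDR3 and HSF1 were named in any case. Of these related genes, UFD1, NPL4, UBC5, PDR3 and HSF1 are given as mean and SD only.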

Additional observations from a re-analysis of the deposited data

How the results depend on the processing

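With the replicate as a block, 19, 20 and 28 genes rose in HOG1-CCAAX, hog1del and HOG1-GFP, 3 fell in hog1del, and 5 passed in the response difference of hog1del and HOG1-GFP. Leaving out each replicate in turn gave 4 to 28 genes higher in HOG1-CCAAX, 3 to 21 in hog1del and 4 to 31 in HOG1-GFP, with 0 to 1 lower in hog1del. For response differences it gave 0 to 9 genes in hog1del minus HOG1-GFP and 0 to 1 in HOG1-CCAAX minus HOG1-GFP. For levels at 60 min it gave 1 to 15 genes in hog1del minus HOG1-GFP, 0 to 2 in HOG1-CCAAX minus HOG1-GFP and 0 to 3 in HOG1-CCAAX minus hog1del. The upper ends for levels came without replicate 1. In that fit 17.7% of all genes were higher and 19.2% lower in hog1del than in HOG1-GFP, and 17.8% and 24.3% passed in the other comparisons. Without the replicate block, 2 genes passed in hog1del minus HOG1-GFP at 60 min, both lower, beside 3.42% of all genes lower. Median centring and quantile normalization each gave 1 gene lower in HOG1-CCAAX than in HOG1-GFP at 60 min, RPN5 and PRE1. Leaving out the first technical profile of replicate 1, an alternative chosen after seeing the data, gave 13, 9 and 17 genes higher in HOG1-CCAAX, hog1del and HOG1-GFP and 10 genes in hog1del minus HOG1-GFP at 60 min. For that alternative, median centring and quantile normalization the shares of all genes are not given here. Their counts therefore have no background to be read against. Leaving out each replicate in turn put the median response of the core between 0.12 and 0.48 in HOG1-CCAAX, 0.01 and 0.35 in hog1del, and 0.40 and 0.68 in HOG1-GFP, with the highest value without replicate 1. For the base it was 0.32 to 0.56, 0.42 to 0.64 and 0.48 to 0.95, and for the lid 0.40 to 0.74, 0.29 to 0.59 and 0.58 to 1.13. No called gene changed sign. The block also moved counts within core, base, lid and the related lists by over 1.5 times, as given beside them. The deposited ratios carry no signal over background, so dim probes were not marked. The search of promoters for the Rpn4 element was not run. Removing samples leaves fewer residual degrees of freedom; the cause of the other changes was not tested.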
